A study of Mus musculus with 12 samples.

Results

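The TGF-beta superfamily receptors considered here are 8 genes of the 32285 gene IDs in the count table. They are 4 type I receptors (Bmpr1a, Acvr1, Acvr1b and Tgfbr1) and 4 type II receptors (Bmpr2, Acvr2a, Acvr2b and Tgfbr2). The choice was by name and by no cut-off on measured values, though earlier results of these data were known. All 8 were found and all 8 passed the filter on low counts. RNA was sequenced from mouse embryonic stem (ES) cells labelled E14Tg2a.IV, of 3 genotypes, wild type (WT), Smad2 and Smad3 double knockout (S23DKO) and Smad4 knockout (S4KO). Each genotype was sampled undifferentiated (day 0) and after 4 days as embryoid bodies without LIF, the cytokine that holds ES cells in the undifferentiated state (day 4). Each of the 6 groups holds 2 libraries, and the labels do not say that these were separate cultures or how many clones stand for a knockout. The p-values therefore measure the spread between these libraries, which may be technical.

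Signalling in this family starts when a dimeric ligand gathers type II and type I receptors, both serine and threonine kinases. The constitutively active type II receptor phosphorylates a box rich in glycine and serine, the GS box, next to the kinase domain of the type I receptor, which then phosphorylates Smad proteins. ACVR1B and TGFBR1 act on Smad2 and Smad3, and BMPR1A and ACVR1 act on Smad1, Smad5 and Smad9. ACVR1B with ACVR2A or ACVR2B carries Nodal and activin signals, which pattern the primitive streak in the embryo, TGFBR2 is the type II receptor for TGF-beta itself, and BMPR2 serves BMPs. Smad4 is the partner that both branches share.

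In mm10 the type I genes are Bmpr1a (ENSMUSG00000021796, chr14:34410734-34503341, minus strand), Acvr1 (ENSMUSG00000026836, chr2:58388644-58567157, minus strand), Acvr1b (ENSMUSG00000000532, chr15:101174067-101213684, plus strand) and Tgfbr1 (ENSMUSG00000007613, chr4:47353222-47414931, plus strand). The type II genes are Bmpr2 (ENSMUSG00000067336, chr1:59763400-59879014, plus strand), Acvr2a (ENSMUSG00000052155, chr2:48814109-48903269, plus strand), Acvr2b (ENSMUSG00000061393, chr9:119402118-119434995, plus strand) and Tgfbr2 (ENSMUSG00000032440, chr9:116084293-116175360, minus strand).

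The coding stretches around the GS box are printed because this box defines the type I receptors and because the stretches show how far the base composition of these genes differs, a point that recurs below. Each is read 5′ to 3′ from the GENCODE M21 transcripts (build GRCm38, which is mm10), with the 18 bases of the box in capitals.
Bmpr1a: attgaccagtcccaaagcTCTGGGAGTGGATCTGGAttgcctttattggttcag
Acvr1: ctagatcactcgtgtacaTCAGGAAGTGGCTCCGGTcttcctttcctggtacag
Acvr1b: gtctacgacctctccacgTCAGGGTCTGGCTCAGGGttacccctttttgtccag
Tgfbr1: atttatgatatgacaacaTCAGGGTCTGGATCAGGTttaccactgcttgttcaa

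The Acvr1 stretch lies within exon 8 of 13 (chr2:58474213-58474266, minus strand). The other 3 are joined across an intron, between exons 8 and 9 of 13 in Bmpr1a (chr14:34425133-34429703, minus strand), and between exons 3 and 4 of 9 in Acvr1b (chr15:101195024-101198803, plus strand) and in Tgfbr1 (chr4:47393456-47396374, plus strand). Acvr1b and Tgfbr1, the receptors that share Smad2 and Smad3, were the most alike pair, with 38 of 54 bases identical and 16 of 18 in the box. Bmpr1a and Acvr1 shared 34 bases, and the 4 pairs across the branches 30 or 31. Although Acvr1b and Tgfbr1 are alike, 57.4% of the Acvr1b stretch was G or C against 38.9% of the Tgfbr1 stretch.

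The same split ran through the whole transcripts. The longest annotated transcript held 41.3% G and C for Bmpr1a, 41.0% for Tgfbr1, 41.0% for Bmpr2 and 39.9% for Acvr2a, which are called the AT-rich receptors below. It held 48.7% for Acvr1, 49.6% for Tgfbr2, 53.5% for Acvr1b and 54.4% for Acvr2b, whose longest coding transcript held 64.0%. Across the tested genes the median was 49.7%. At the third positions of codons, the content was 39.6% in Acvr2a and 77.8% in Acvr2b, the 2 activin type II receptors, in their longest coding transcripts.

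Total counts were 31566376 to 55806858 per library, and the receptors had between 47 counts (Tgfbr2, lowest library) and 12197 counts (Bmpr1a, highest library). The WT day 0 libraries stood apart. Ribosomal-protein transcripts took 13.9% and 10.1% of their counts against 4.73% to 7.32% elsewhere. Levels, each taken relative to the gene's mean over all libraries, had negative slopes with exon length. These were -0.44 and -0.35 on the log2 scale per doubling of length, against -0.13 to 0.22 in the other libraries. Such slopes show how a library differs from the rest, not how its own levels depend on length. Mitochondrial transcripts took 6.74% of S23DKO day 0 replicate 2 and 1.87% to 3.93% of the other libraries. Transcripts of the targeted genes were present in the knockouts: Smad2 had 44.0 ± 8.58 CPM (each count scaled to the library total, mean ± SD) and Smad3 16.8 ± 4.33 CPM in S23DKO at day 0, against 29.8 ± 7.28 and 9.22 ± 1.58 CPM in WT. Smad4 had 88.9 ± 12.6 CPM in S4KO and 44.3 ± 3.92 CPM in WT at day 0. The totals of Smad2, Smad3 and Smad4 did not check the knockout labels, and S23DKO and S4KO stand throughout for the libraries so labelled. Lefty1, a secreted antagonist, had 189 and 202 CPM in WT at day 0, 0.0589 and 0.0650 in S23DKO and 18.5 and 30.9 in S4KO. The part of the knockouts in these levels was not tested. E14Tg2a is known as an Hprt-deficient line, and Hprt had 0.318 to 0.602 CPM in the group means of WT and S23DKO but 206 ± 1.57 CPM at day 0 and 175 ± 4.02 at day 4 in S4KO. The S4KO values go against the line name on their label. Xist had 58.6 ± 35.8 CPM in S23DKO and 0.819 ± 0.164 in WT at day 0. Differences between the lines and effects of the genotype cannot be told apart.

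Receptor levels are given as FPKM (fragments scaled to transcript length and sequencing depth), as the authors deposited them, replicate 1 then replicate 2. These values are per length, so genes can be set side by side, with a limit. The length that counts and FPKM together imply varied between libraries for some genes. It ranged from 5562 to 8274 bases for Tgfbr2 and from 2487 to 3184 for Acvr2b, but only from 4429 to 4486 for Acvr1b. Comparisons by FPKM carry this limit. Bmpr1a, a BMP type I receptor, had 5.46 and 6.67 in WT at day 0, 18.1 and 25.1 in S23DKO and 18.4 and 10.98 in S4KO. At day 4 it had 34.7 and 21.3 in WT, 35.4 and 40.5 in S23DKO and 22.9 and 30.9 in S4KO. Both WT day 0 libraries lay below the other 10, and Bmpr1a had the highest mean of the 8 receptors in 5 groups, WT day 0 being the exception, where it was the third.

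Tgfbr1, the TGF-beta type I receptor, had 2.87 and 3.42 FPKM in WT at day 0, 8.77 and 11.9 in S23DKO and 8.84 and 5.26 in S4KO. Day 4 gave 13.7 and 8.43 in WT, 12.3 and 11.04 in S23DKO and 11.9 and 12.2 in S4KO. WT at day 0 was again below all other libraries, and the 3 genotypes overlapped at day 4.

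Acvr1b, the Nodal and activin type I receptor, had 5.38 and 7.45 FPKM in WT at day 0, 14.2 and 9.61 in S23DKO and 12.4 and 14.3 in S4KO. At day 4 it had 9.67 and 12.8 in WT, 14.5 and 13.6 in S23DKO and 11.9 and 11.6 in S4KO. The WT day 0 libraries were the lowest 2, the other 10 lay between 9.61 and 14.5, and the highest library had 2.70 times the level of the lowest, the smallest range of the 8 genes.

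Acvr1, a BMP type I receptor, had 1.59 and 3.01 FPKM in WT at day 0, 4.13 and 4.56 in S23DKO and 2.55 and 2.99 in S4KO. Its day 4 values were 7.04 and 6.72 in WT, 4.49 and 4.30 in S23DKO and 4.95 and 5.55 in S4KO. At day 4 the groups did not overlap, with WT highest and S23DKO lowest, whereas at day 0 S23DKO was above both other genotypes.

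Among the type II receptors, Acvr2b had 6.75 and 6.06 FPKM in WT at day 0, 8.43 and 6.15 in S23DKO and 6.26 and 4.81 in S4KO. On day 4 Acvr2b had 7.20 and 14.3 in WT, 13.7 and 11.5 in S23DKO and 13.6 and 13.7 in S4KO. It is the one member whose lowest group mean was not WT at day 0 but S4KO at day 0 (5.54 ± 1.03), and no neighbouring groups in its order were free of overlap.

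Acvr2a, its paralogue, had 1.25 and 1.71 FPKM in WT at day 0, 2.94 and 4.11 in S23DKO and 3.65 and 2.17 in S4KO. Day 4 values were 7.39 and 4.31 in WT, 4.86 and 5.81 in S23DKO and 5.68 and 6.74 in S4KO. Both knockouts lay above WT at day 0 and overlapped it at day 4.

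Bmpr2, the BMP type II receptor, had 1.07 and 1.24 FPKM in WT at day 0, 2.57 and 4.21 in S23DKO and 2.71 and 1.39 in S4KO. On day 4 Bmpr2 had 5.75 and 3.13 in WT, 4.15 and 4.66 in S23DKO and 3.68 and 3.79 in S4KO. The WT day 4 pair spanned both knockouts.

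Tgfbr2 was the lowest receptor in all 6 groups and reached 1 FPKM in 0 of 12 libraries. It had 0.114 and 0.135 FPKM in WT at day 0, 0.317 and 0.386 in S23DKO and 0.195 and 0.472 in S4KO. On day 4 Tgfbr2 had 0.425 and 0.496 in WT, 0.962 and 0.908 in S23DKO and 0.229 and 0.440 in S4KO. The S23DKO day 4 libraries were above all others.

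**Figure D1:**
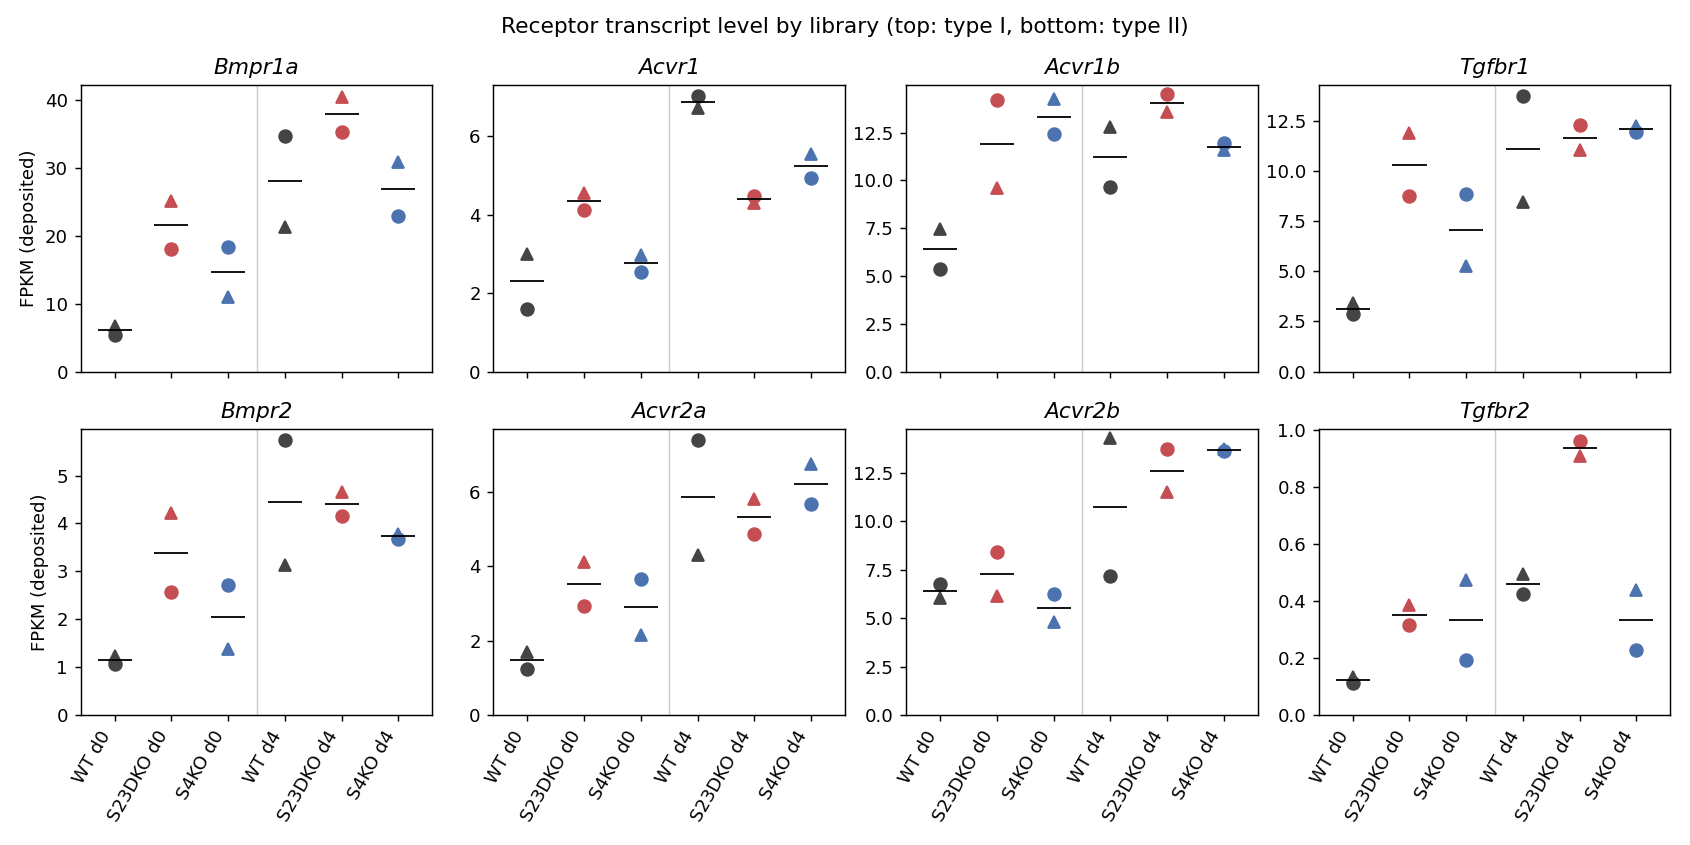
Deposited FPKM of each receptor (vertical axis, starting at 0, scale differing by panel) in each library by group (horizontal axis), with circles for replicate 1, triangles for replicate 2 and a line at the mean. WT at day 0 has the lowest mean for 7 of the 8 genes, Acvr2b being the exception, and Tgfbr2 stays below 1 FPKM throughout.

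Ordered by mean FPKM over the 6 groups, neighbouring groups were free of overlap in 3 of 5 pairs for Acvr1 and Tgfbr2, 2 of 5 for Bmpr1a, Bmpr2 and Acvr2a, 1 of 5 for Acvr1b and Tgfbr1, and 0 of 5 for Acvr2b. Most neighbours in these orders therefore did not differ beyond the spread of their 2 libraries.

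The make-up of each class was set by few genes. The 4 type I receptors summed to 17.9 ± 3.72 FPKM (mean ± SD, n = 2) in WT at day 0 and 57.2 ± 11.2 at day 4, and the 4 type II receptors to 9.17 ± 0.0319 and 21.5 ± 1.05. Bmpr1a took 34.1% ± 2.30 of the type I sum in WT at day 0, 44.6% ± 6.35 in S23DKO and 38.2% ± 7.62 in S4KO. At day 4 it took 48.3% ± 7.10 in WT, 55.7% ± 3.76 in S23DKO and 47.7% ± 4.94 in S4KO. Acvr1b held 35.7% ± 0.787 of the type I sum in WT at day 0 and 20.4% ± 7.90 at day 4. The corresponding Acvr1b shares were 25.1% ± 8.90 and 20.7% ± 1.59 in S23DKO, and 36.002% ± 9.30 and 21.2% ± 2.71 in S4KO.

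Acvr2b held 69.9% ± 5.08 of the type II sum in WT at day 0. It held 50.3% ± 12.6 in S23DKO and 51.6% ± 3.93 in S4KO at that day. At day 4 the Acvr2b share was 49.5% ± 20.98 in WT, where the libraries differed most (34.7% and 64.3%), 54.1% ± 5.39 in S23DKO and 57.1% ± 2.23 in S4KO. Tgfbr2 held 1.36% to 4.01% across the group means. Shares were described and not tested. FPKM does not remove the trends with length and GC content that differ between libraries, by length most of all in WT at day 0. The sums and shares carry these trends.

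**Figure D2:**
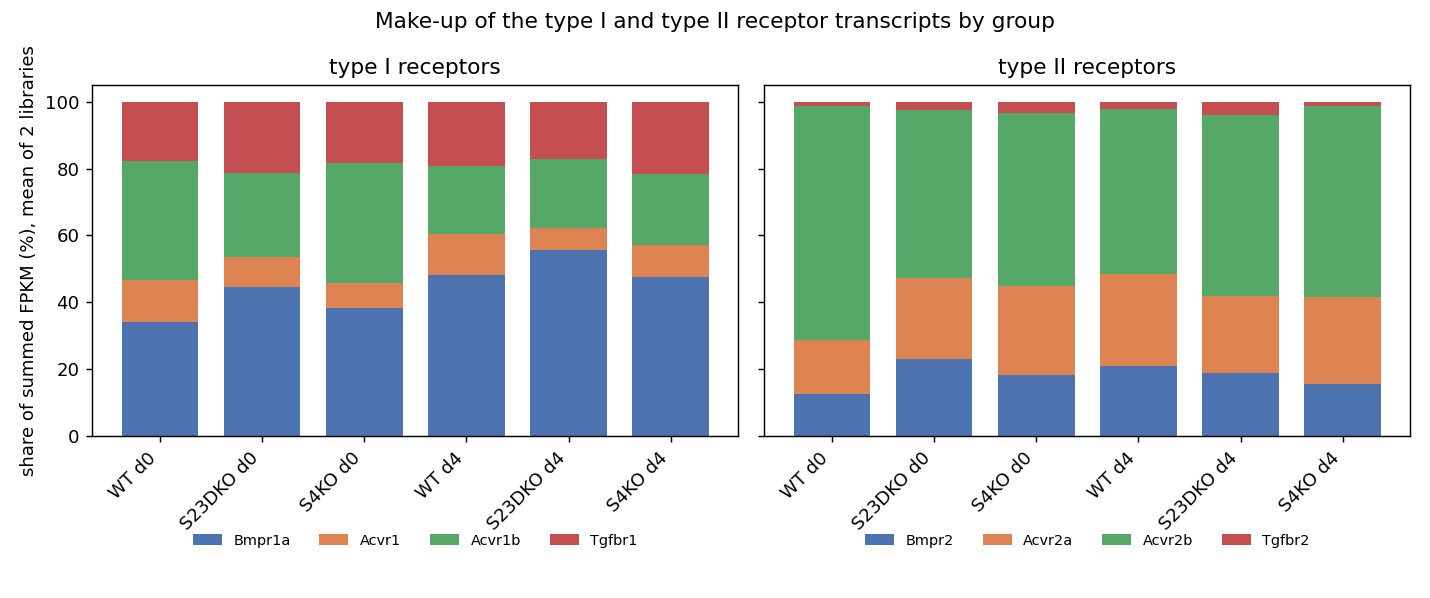
Share of each receptor in the summed FPKM of its class (vertical axis, %, mean of 2 libraries) by group, type I on the left and type II on the right. Bmpr1a takes 34.1% to 55.7% of the type I sum and Acvr2b 49.5% to 69.9% of the type II sum. The length and GC trends of the libraries are not removed from these shares.

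The first comparison asked how receptor transcripts changed as WT cells differentiated. In edgeR's quasi-likelihood test on the counts, adjusted over the 18693 genes tested and called at an adjusted p below 0.05, 6 of the 8 receptors rose from day 0 to day 4 and 0 fell. In this contrast 43.6% of all tested genes were called, and 23.8% rose. The median log2 fold change was 1.57 over the receptors and 0.08 over all genes. Bmpr1a rose by 2.00 ± 0.32 on the log2 scale (± SE, adjusted p = 0.000901), Acvr2a by 1.77 ± 0.35 (0.00235), Bmpr2 by 1.73 ± 0.37 (0.00386) and Tgfbr1 by 1.59 ± 0.30 (0.0021). Tgfbr2 rose by 1.55 ± 0.41 (0.0109) and Acvr1 by 1.37 ± 0.27 (0.00232). Acvr2b (0.77 ± 0.33, adjusted p = 0.0752) and Acvr1b (0.60 ± 0.25, 0.0733) did not pass. The Tgfbr2 call was lost without either WT day 0 library, and Acvr2b passed without WT day 4 replicate 1.

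The trends of the libraries with transcript length and GC content moved with this comparison. The 2 WT day 4 libraries also differed from each other in their GC slopes. Per 10 percentage points of GC content, these were -0.60 on the log2 scale in replicate 1 and 0.26 in replicate 2. GC slopes were fitted jointly with length, on levels taken relative to each gene's mean over all libraries. In a fit with offsets that remove both trends from every library, 42.7% of all genes were called, and 6 receptors rose, 4 of them in both fits. Those 4 were Bmpr1a (1.14 ± 0.21 with the offsets, adjusted p = 0.00157), Acvr1 (1.13 ± 0.22, 0.00224), Acvr2a (0.97 ± 0.22, 0.00548) and Tgfbr1 (0.70 ± 0.18, 0.0112). Acvr1b (0.69 ± 0.18, 0.0123) and Acvr2b (0.93 ± 0.28, 0.0196) passed with the offsets alone. Bmpr2, with 17983 bases of exon the longest of the 8, was then at 0.21 ± 0.23 (0.489). Tgfbr2 was at 0.88 ± 0.39 (0.0898), and neither passed. The offsets used the length of all exons of a gene, also 4829 bases for Acvr1 and 3928 for Acvr2b. Counts and FPKM together imply shorter lengths, 12891 to 13115 for Bmpr2, 2853 to 3337 for Acvr1 and 2487 to 3184 for Acvr2b. How far this moved their corrected values was not tested.

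The ratio between replicates was also read gene by gene, and the split by GC content appeared in 3 of the 6 groups, in S4KO day 0 only in part. In WT at day 4, replicate 1 had 1.83 times the FPKM of replicate 2 for Bmpr2, 1.72 times for Acvr2a, and 1.63 times for both Bmpr1a and Tgfbr1. The ratio was 1.05 for Acvr1, 0.857 for Tgfbr2, 0.754 for Acvr1b and 0.503 for Acvr2b, so the AT-rich receptors were higher in replicate 1 and the 2 GC-rich ones in replicate 2. In S4KO at day 0 the AT-rich receptors were likewise 1.67 to 1.95 times higher in replicate 1, beside GC slopes of -0.25 and 0.14. In S23DKO at day 0 they were at 0.609 to 0.738 of replicate 2 while Acvr1b and Acvr2b were at 1.48 and 1.37, beside GC slopes of 0.02 and -0.20. Acvr2b in S4KO at day 0 went against the split, with 1.30 times the level in replicate 1. In that group Acvr1b was at 0.870 of replicate 2 and Acvr1 at 0.854. Tgfbr2, at 49.6% GC, was at 0.412, the ratio furthest from equal. The other 3 groups did not show the split. In WT at day 0, with GC slopes of 0.28 and 0.35, the AT-rich receptors were at 0.733 to 0.865 of replicate 2 but Acvr1b was at 0.721 too. At day 4 in S4KO (slopes of -0.08 and -0.05) and S23DKO (0.11 and 0.01) the AT-rich receptors were at 0.741 to 0.976 and at 0.835 to 1.11 of replicate 2.

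**Figure D3:**
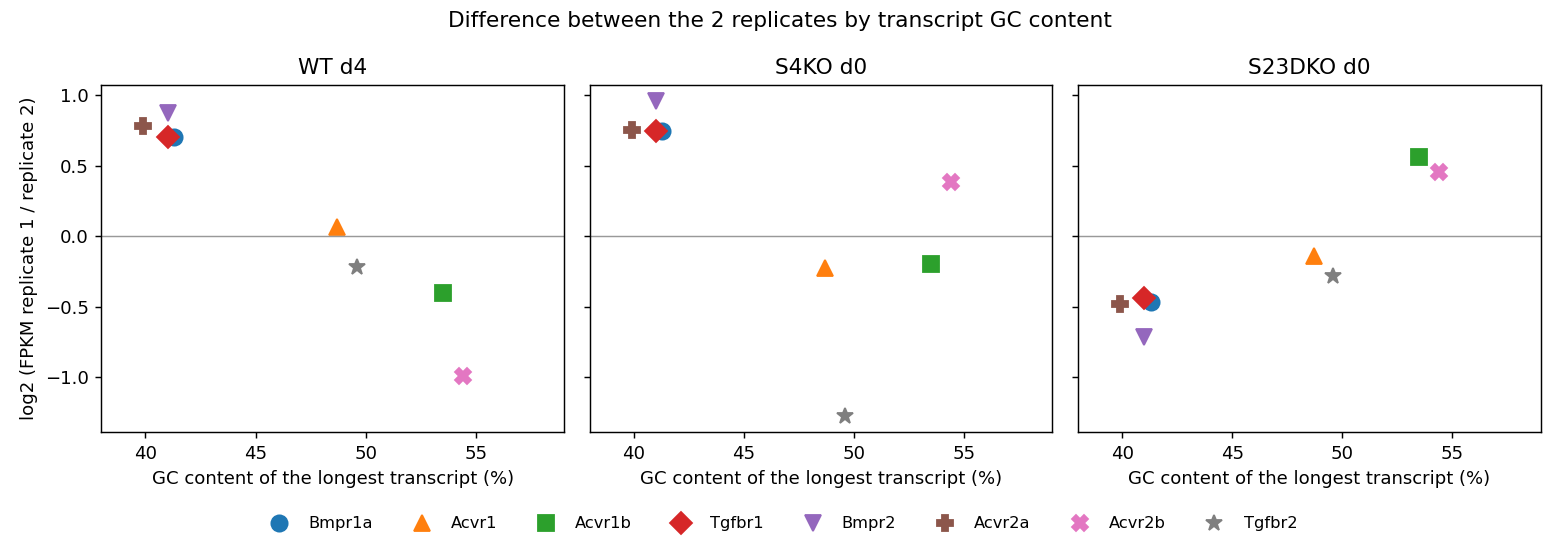
Log2 ratio of FPKM in replicate 1 to replicate 2 (vertical axis) against the GC content of the longest transcript (horizontal axis, %) for the 8 receptors in the 3 groups that showed a split. The 4 genes near 40% lie above 0 in WT day 4 and S4KO day 0 and below 0 in S23DKO day 0. In S4KO day 0 Acvr2b also lies above 0, so the split there is partial.

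Across the 12 libraries, log2(CPM + 1) of the AT-rich receptors correlated pair by pair at r = 0.95 to 0.97, whereas Acvr1b correlated with the other receptors at 0.47 to 0.68 and Acvr2b at 0.48 to 0.70. These correlations describe libraries that share genotype, day, and the length and GC trends. The most like genes among 10600 candidates were Cdc27 (r = 0.99) for Bmpr1a, Rabgap1 (0.99) for Tgfbr1, Rc3h1 (0.99) for Bmpr2 and Cnot6 (0.99) for Acvr2a. They were Rfx5 (0.96) for Acvr1, R3hdm2 (0.94) for Acvr1b, Wdr81 (0.94) for Acvr2b and Derl1 (0.95) for Tgfbr2.

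The knockouts were next compared with WT at day 0. Of the 8 receptors, 4 were higher in S23DKO and 0 lower, where 31.0% of all genes were called and 16.7% were higher. The median was 0.93 over the receptors and 0.02 over all genes. Bmpr1a was higher by 1.60 ± 0.32 on the log2 scale (adjusted p = 0.00506), Tgfbr1 by 1.45 ± 0.30 (0.00629), Bmpr2 by 1.31 ± 0.37 (0.0213) and Acvr2a by 1.02 ± 0.34 (0.0417). These are the AT-rich receptors. Tgfbr2 (0.84 ± 0.41, adjusted p = 0.14), Acvr1 (0.69 ± 0.26, 0.0663), Acvr1b (0.67 ± 0.25, 0.062) and Acvr2b (0.13 ± 0.33, 0.789) did not pass.

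With the length and GC offsets 3 receptors passed, where 31.3% of all genes did, and 2 were shared with the first fit. Bmpr1a was then higher by 1.03 ± 0.21 (adjusted p = 0.00453) and Tgfbr1 by 0.85 ± 0.18 (0.00641). Acvr1b passed with the offsets alone (0.77 ± 0.19, 0.0106), while Bmpr2 (0.26 ± 0.23, 0.412) and Acvr2a (0.47 ± 0.22, 0.126) were lost. With 1 library left out at a time, Bmpr1a ranged from 1.40 to 1.80, Tgfbr1 from 1.27 to 1.64, Bmpr2 from 0.96 to 1.61 and Acvr2a from 0.81 to 1.22. All receptor calls were lost without WT replicate 1, and those of Bmpr2 and Acvr2a without WT replicate 2. Such fits leave 1 library in a group, and calls over all genes fell in them too.

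Markers of other cell types also differed at day 0, by the summed CPM of each list in the lowest and highest library. The 6 trophoblast markers summed to 209 to 227 CPM in S23DKO, 59.96 to 68.5 in WT and 59.3 to 77.2 in S4KO, with Cdx2, Gata3, Elf5 and Plac1 under 1 CPM in both libraries of WT and of S4KO. The 8 extraembryonic endoderm markers summed to 23.3 to 43.4 CPM in S23DKO, 4.80 to 6.54 in WT and 8.84 to 11.003 in S4KO, with Sox17, Afp and Ttr under 1 CPM in both libraries of every genotype. The 7 pluripotency markers summed to 2631 to 4453 CPM in S23DKO, 4787 to 5360 in WT and 4625 to 5004 in S4KO, with none under 1 CPM. Their members did not move alike. Nanog was higher in both knockouts (732 and 676 CPM in S23DKO, 625 and 602 in S4KO, 402 and 446 in WT), and Pou5f1 and Utf1 were lower in both. Esrrb, Zfp42 and Tdgf1 were higher than WT in S4KO and overlapped it in S23DKO, and Sox2 was lower in S23DKO and overlapped WT in S4KO. The 6 primitive streak markers summed to 5.44 to 12.4 CPM over the 3 genotypes. Of these, T, Mixl1, Mesp1, Gsc and Fgf8 were under 1 CPM in both libraries of every genotype, which leaves Eomes. The 6 fibroblast markers summed to 9.55 to 28.1, with Col3a1 under 1 CPM in both libraries of every genotype and Postn in both of WT and of S4KO. The part of these cell types in the day 0 receptor differences was not tested.

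In S4KO at day 0, 3 receptors were higher than in WT and 0 lower, beside 19.6% of all genes called and 10.5% higher. The median was 0.84 over the receptors and 0.01 over all genes. Bmpr1a was higher by 1.11 ± 0.31 (adjusted p = 0.0322), Tgfbr1 by 0.97 ± 0.30 (0.0433) and Acvr1b by 0.88 ± 0.25 (0.033). Tgfbr2 (0.93 ± 0.41, 0.128), Acvr2a (0.80 ± 0.34, 0.119), Bmpr2 (0.65 ± 0.36, 0.228), Acvr1 (0.07 ± 0.26, 0.895) and Acvr2b (-0.19 ± 0.33, 0.726) did not pass. With the offsets, where 18.2% of all genes passed, Acvr1b alone did (0.99 ± 0.19, adjusted p = 0.00665), and Bmpr1a (0.59 ± 0.21, 0.068) and Tgfbr1 (0.43 ± 0.18, 0.125) were lost. When 1 library was left out at a time, Bmpr1a ranged from 0.66 to 1.47, Tgfbr1 from 0.54 to 1.33 and Acvr1b from 0.71 to 1.07. Every receptor call was lost without replicate 1 or 2 of WT, or replicate 1 of S4KO. Calls over all genes fell in these fits too.

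**Figure D4:**
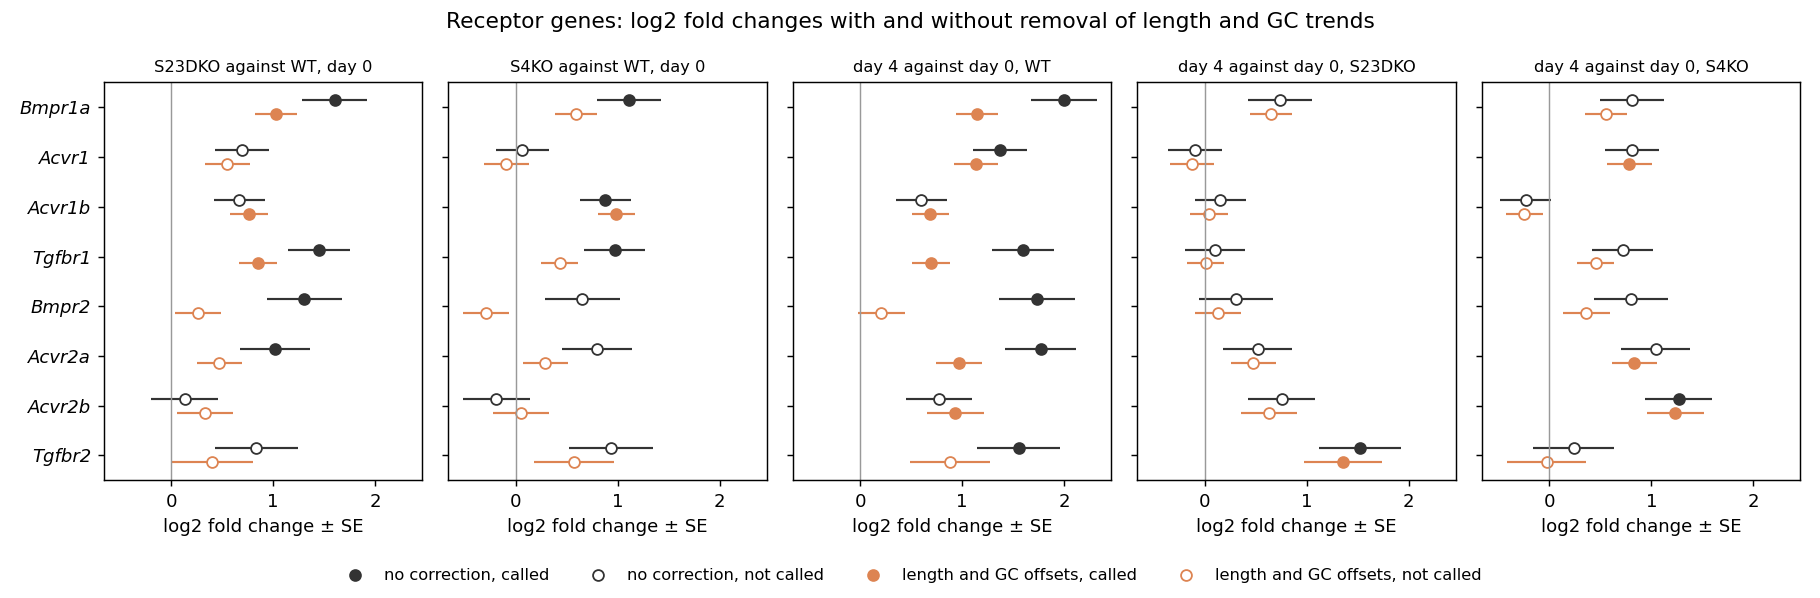
Log2 fold change ± SE (horizontal axis) of each receptor in 5 comparisons, in the fit without correction (dark) and with length and GC offsets (orange), filled where called at an adjusted p below 0.05. Bmpr2 moves most between the fits, from 1.73 to 0.21 in WT day 4 against day 0.

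At day 4 no receptor passed against WT in either knockout. In S23DKO 0 of 8 were called, beside 15.2% of all genes, and 1 had an unadjusted p below 0.05 (DESeq2 called 1 and limma on FPKM 0, Tgfbr2 being below its filter). That gene was Acvr1, at -0.77 ± 0.26 (edgeR adjusted p = 0.0705), which passed with the offsets (-0.71 ± 0.22, 0.0353, beside 24.1% of all genes). Tgfbr2 was at 0.80 ± 0.39 (0.193), although its S23DKO libraries lay above those of WT. In S4KO 0 of 8 were called, beside 1.73% of all genes, with 0 at an unadjusted p below 0.05 and 0 by DESeq2 and limma. Acvr1 was at -0.49 ± 0.26 (0.438) and Acvr2b at 0.31 ± 0.32 (0.77), the ends of the range.

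The summed CPM of the marker lists differed between the genotypes at that day too. The 6 primitive streak markers summed to 438 to 515 CPM in WT, 7.24 to 8.69 in S23DKO and 14.6 to 23.5 in S4KO, with T, Mixl1, Mesp1, Gsc and Fgf8 under 1 CPM in both libraries of S23DKO and Mesp1 and Gsc in both of S4KO. In S4KO replicate 1, T, Mixl1 and Fgf8 were under 1 CPM as well. The 8 extraembryonic endoderm markers summed to 696 to 773, 124 to 191 and 35.2 to 66.1 CPM, and Ttr was under 1 CPM in both libraries of S4KO. In S4KO replicate 1, Sox17 was at 0.747 CPM and Afp at 0, against 1.24 and 3.01 in replicate 2. The 6 trophoblast markers summed to 33.5 to 45.3 CPM in WT, 532 to 541 in S23DKO and 78.2 to 111 in S4KO. Elf5 and Plac1 were under 1 CPM in both libraries of WT and of S4KO, Gata3 in both of WT and Cdx2 in both of S4KO. The pluripotency markers summed to 1698 to 2234, 856 to 1034 and 1547 to 2526 CPM, with none under 1 CPM. Among them, Pou5f1, Sox2, Nanog and Tdgf1 were lower in S23DKO than in WT, and Utf1 overlapped. Esrrb and Zfp42 were higher than WT in both knockouts. In S23DKO Esrrb had 151 and 108 CPM and Zfp42 132 and 104, against 64.8 and 93.6 and 62.7 and 59.7 in WT. The 6 fibroblast markers stayed at 9.59 to 31.8 CPM, with Col3a1 and Postn under 1 CPM in both libraries of WT and of S4KO. Their part in the day 4 receptor levels was not tested, and fewer cells of a type and less RNA per cell cannot be told apart in bulk samples.

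Day 4 was next compared with day 0 within each knockout. In S23DKO 1 receptor rose from day 0 to day 4, beside 7.03% of all genes called: Tgfbr2, by 1.52 ± 0.40 (adjusted p = 0.0449), and by 1.36 ± 0.38 (0.0375) with the offsets, where 15.7% of all genes passed. Acvr2b (0.75 ± 0.33, 0.178), Bmpr1a (0.74 ± 0.31, 0.17) and Acvr1 (-0.09 ± 0.26, 0.862) did not pass. In S4KO 1 receptor rose, beside 8.90% of all genes: Acvr2b, by 1.27 ± 0.33 (adjusted p = 0.0358). With the offsets, where 16.7% passed, 3 rose: Acvr2b (1.23 ± 0.28, 0.0143), Acvr2a (0.83 ± 0.22, 0.027) and Acvr1 (0.79 ± 0.22, 0.0329). Without offsets Acvr2a was at 1.04 ± 0.34 (0.0794), Acvr1 at 0.81 ± 0.26 (0.0796), Bmpr1a at 0.81 ± 0.31 (0.13) and Acvr1b at -0.23 ± 0.25 (0.606). The single calls of both knockouts were lost when any one of the libraries compared was left out.

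Whether the genotype effect differed between the days was tested as an interaction. For S23DKO 1 receptor passed, beside 6.10% of all genes: the effect on Acvr1 was lower at day 4 than at day 0 by -1.46 ± 0.37 on the log2 scale (adjusted p = 0.0452), and by -1.26 ± 0.31 (0.0348) with the offsets, where 7.67% of all genes passed. With the replicate number as a block it had an adjusted p of 0.0511. Over the 8 fits that left out 1 library, the Acvr1 value ranged from -1.80 to -1.18. Its call held only without WT day 4 replicate 2, and calls over all genes moved with the library left out too. Tgfbr1 (-1.49 ± 0.42, 0.0577) and Bmpr2 (-1.43 ± 0.51, 0.102) did not pass. For S4KO 0 receptors passed, beside 0.150% of all genes, 3 had an unadjusted p below 0.05, and DESeq2 and limma called 0. Tgfbr2 was at -1.31 ± 0.57 (0.211), Bmpr1a at -1.19 ± 0.44 (0.162) and Acvr2b at 0.50 ± 0.46 (0.562). Without WT day 4 replicate 2, Bmpr1a passed (adjusted p = 0.0436).

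The knockouts were also compared with each other. At day 0, 0 receptors were called, beside 5.53% of all genes, 1 had an unadjusted p below 0.05, and DESeq2 and limma called 0. Bmpr2 was at -0.65 ± 0.36 (S4KO minus S23DKO, adjusted p = 0.341) and Acvr1b at 0.21 ± 0.25 (0.691). At day 4, 0 were called beside 12.3% of all genes, 1 had an unadjusted p below 0.05, DESeq2 called 1 and limma 0. Tgfbr2 was lower in S4KO by -1.18 ± 0.40 without passing (0.0764), and passed with the offsets (-1.21 ± 0.38, 0.0445, beside 21.8% of all genes). Acvr2a was at 0.30 ± 0.33 (0.614).

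Of the other receptors of the family, Bmpr1b, Acvrl1 and Amhr2 were tested and Acvr1c was too low. The tests given for these genes used the fit without length and GC offsets. In S23DKO against WT 2 of the 3 were called at each day, beside 31.0% and 15.2% of all genes. Bmpr1b, a BMP type I receptor, was at 0.225 ± 0.0530 FPKM in WT at day 0 and was lower in S23DKO at both days, by -1.77 ± 0.55 (adjusted p = 0.0302) and -1.94 ± 0.52 (0.0294). The call at day 0 was lost without either WT library or without S23DKO replicate 2 (adjusted p 0.092 to 0.161), and that at day 4 without WT replicate 1 or either S23DKO library (0.0681 to 0.216). Bmpr1b differed at day 0 in the direction opposite to Bmpr1a. Amhr2, the type II receptor of anti-Müllerian hormone, was lower in S23DKO at day 0 (-1.61 ± 0.51, 0.0355), and Acvrl1, a type I receptor known from endothelium, was higher at day 4 (1.78 ± 0.50, 0.0348). Both calls were lost without any one of the libraries compared (0.0771 to 0.171 and 0.0541 to 0.156).

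In S4KO against WT 0 of the 3 were called at day 0 and at day 4, beside 19.6% and 1.73% of all genes. Bmpr1b was higher in S4KO than in S23DKO at both days, by 2.54 ± 0.55 (adjusted p = 0.0233) and 2.74 ± 0.54 (0.00792), beside 5.53% and 12.3% of all genes. The first call was lost without S23DKO replicate 2 or S4KO replicate 1 (0.141 and 0.0911), and the second without S23DKO replicate 2 (0.0979). In WT from day 0 to day 4, Amhr2 fell by 2.30 ± 0.53 (adjusted p = 0.00534), the single call of the list.

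The pathway lists are read beside the shares of all genes in the same comparisons, all from the fit without length and GC offsets. List results with the offsets are not given here. The receptor median in WT between the days moved from 1.57 to 0.91 with the offsets, so list values may move as well. In WT from day 0 to day 4 the shares of all genes were 43.6% called, 23.8% higher and 19.9% lower. Against WT at day 0 they were 31.0% called in S23DKO and 19.6% in S4KO. Against WT at day 4 they were 15.2% and 1.73%. Of 9 co-receptors, the decoy receptor Bambi among them, 3 rose and 3 fell in WT, and the 6 calls became 2 without WT day 0 replicate 1. Tgfbr3, betaglycan, which presents ligand to type II receptors, rose by 5.28 ± 0.45 (adjusted p = 8.71e-05). At day 0 it was higher in S23DKO by 2.79 ± 0.41 (0.00173) and in S4KO by 1.39 ± 0.40 (0.0327), and the S4KO call was lost without any one of the 4 libraries (adjusted p 0.0795 to 0.214). Of the list, 2 were higher and 1 lower in S23DKO, and 1 higher and 2 lower in S4KO. There was 1 call in S23DKO without WT replicate 1 or S23DKO replicate 2, and 0 to 1 in S4KO without any one library. At day 4 Tgfbr3 was lower in S4KO than in WT (-2.61 ± 0.39, 0.00843), the single call of the list.

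In S23DKO at day 4, 1 co-receptor was higher than in WT and 2 lower. Tdgf1, the Nodal co-receptor, was among the lower (-1.84 ± 0.37, adjusted p = 0.00801) and passed without WT replicate 2 but not without any other library (0.0507 to 0.0802). It is also one of the 7 pluripotency markers, whose sum was 856 to 1034 CPM in S23DKO and 1698 to 2234 in WT at that day. Of 8 Smads, 5 rose in WT from day 0 to day 4 and 0 fell, led by Smad3 (2.21 ± 0.27, 0.000284). At day 0, 3 Smads were higher in S23DKO than in WT, and 4 were higher and 1 lower in S4KO. Without WT day 0 replicate 1 there was 1 Smad call in S23DKO. In S4KO there were 0 Smad calls without any one of WT replicate 1, WT replicate 2 and S4KO replicate 1, and 3 without S4KO replicate 2.

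Of 12 receptor partners and turnover factors, 7 rose and 1 fell in WT between the days. Dab2, an endocytic adaptor that is also one of the endoderm markers, rose by 6.65 ± 0.58 (adjusted p = 9.14e-05), Xiap by 2.23 ± 0.32 (0.000557) and Zfyve16 (endofin, an endosomal protein that binds Smad4) by 2.11 ± 0.26 (0.000302). At day 0, 7 of the 12 were higher and 2 lower in S23DKO, and 4 higher and 1 lower in S4KO. At day 4, 1 was higher and 2 lower in S23DKO, and 0 higher and 2 lower in S4KO. At day 0 the 9 calls in S23DKO became 3 without WT replicate 1 and 5 without S23DKO replicate 2, and the 5 in S4KO became 0 without WT replicate 1 or S4KO replicate 1 and 3 without WT replicate 2. At day 4 the S23DKO calls became 5 without WT replicate 2 and 1 without S23DKO replicate 2, and the S4KO calls became 1 without any one library.

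Of 20 ligands, 5 rose and 5 fell in WT, and 0 were higher and 3 lower in each knockout at day 0. The WT count of 10 was 5 to 6 without either WT day 0 library or WT day 4 replicate 1. The S23DKO count became 1 without WT replicate 1 or S23DKO replicate 2, and the S4KO count was 0 to 1 without any one library. Of 11 secreted antagonists, 2 were higher and 5 lower in S23DKO than in WT at day 4, and 0 higher and 3 lower in S4KO. The largest named changes in S23DKO were of Cer1, Lefty1 and Lefty2, all lower. Lefty1 had 0.968 and 0.279 CPM in S23DKO and 41.8 and 112 in WT at day 4. Of the same 11, 3 rose and 1 fell in WT between the days. At day 0, 2 were higher and 2 lower in S23DKO, and 0 higher and 1 lower in S4KO. Without WT day 0 replicate 1 these counts of 4, 4 and 1 became 2, 2 and 0, and the S4KO count was also 0 without S4KO replicate 1 and 2 without WT replicate 2.

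The 250 bases upstream of the RefSeq start (GRCm38.p6) are given for the first of 2 Tgfbr1 starts and for Acvr2a, because both are AT-rich in their transcripts, correlated at r = 0.95, and have windows free of annotated exons. Capitals mark GTCT or its reverse complement AGAC, the short Smad-binding element, and GGCGCC, a GC-rich element bound by Smads, on either strand.
Tgfbr1 (chr4:47352972-47353221, plus strand): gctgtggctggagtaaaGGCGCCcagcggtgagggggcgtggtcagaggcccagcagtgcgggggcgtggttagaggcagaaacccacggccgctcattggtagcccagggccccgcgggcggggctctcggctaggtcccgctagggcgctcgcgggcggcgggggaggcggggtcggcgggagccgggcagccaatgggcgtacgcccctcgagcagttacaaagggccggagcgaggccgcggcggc
Acvr2a (chr2:48813859-48814108, plus strand): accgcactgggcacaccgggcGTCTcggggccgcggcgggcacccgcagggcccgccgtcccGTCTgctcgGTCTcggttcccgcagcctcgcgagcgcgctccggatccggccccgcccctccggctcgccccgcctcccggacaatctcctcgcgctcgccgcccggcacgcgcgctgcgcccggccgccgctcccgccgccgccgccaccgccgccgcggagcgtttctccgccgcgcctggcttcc

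The Tgfbr1 window was 74.8% G and C and held 1 GGCGCC and 0 GTCT. The window of the second Tgfbr1 start (chr4:47385966-47386215, plus strand), not printed, was 52.8% and held 0 GGCGCC and 2 GTCT. The Acvr2a window was 82.0% and held 3 GTCT and 0 GGCGCC. Over all 32851 RefSeq windows of this length the median was 52.4%, 82.9% held GTCT on either strand, and 9.59% held GGCGCC. Tgfbr2, the lowest receptor, had 58.4% in its window and 1 GTCT. A match of letters is a description and not a site of binding.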

How the data were processed

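TruSeq v2 libraries of total RNA from 12 samples (3 genotypes, 2 days, 2 replicates, grouped by title) were used. The authors deposited counts per Ensembl gene ID, whole numbers with no normalization recorded, and FPKM values per gene symbol. The submitters' processing notes name Cufflinks, StringTie, DESeq2 and the mm10 build, with no role for any tool. Which aligner, annotation and strand setting the authors used is not given in the sources used here. Total counts were 31566376 to 55806858 per library. Of 32285 gene IDs, 32235 matched GENCODE M21. No column of per-sample values was left unmapped.

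Counts were fitted with edgeR 4.0.16 (R 4.3.3; quasi-likelihood, TMM, filterByExpr, 18693 genes, 1 coefficient per group over 12 libraries). A gene was called at a Benjamini-Hochberg adjusted p below 0.05, and the common biological coefficient of variation was 0.286. Levels, shares and ratios between replicates come from FPKM. Offsets for length and GC content came from a spline with 5 degrees of freedom per library (18682 genes). On simulated data for S23DKO against WT at day 0 (18140 genes, 100 changed at each size), 8% of 2-fold and 76% of 4-fold changes were recovered. In the data 31.0% of tested genes were called, far more than were changed in the simulation. The adjustment for many genes therefore acted differently, and these shares do not give the power of the real comparison. Other settings tried were RLE size factors, DESeq2 1.42.0, 2 other count filters (none, or 1 CPM in at least 2 libraries), and limma 3.58.1 on FPKM after a log2 transform with a pseudocount of 1 or 0.1. The limma fits kept genes at 1 FPKM in at least 2 libraries, which drops Tgfbr2, and 1 of them was repeated unfiltered. Also tried were a replicate block, the offsets, fits of only the groups compared, and omission of each library. A fit without the WT day 0 libraries was added after seeing the data. The rule for naming genes was all 8 receptors and, of each pathway list, up to 3 called members with the largest change and at least 1 CPM in the higher group. Not all of these are named. Candidates for likeness had a mean CPM of 5 or more. The receptors and the lists were chosen with earlier results of these data known. Promoters come from RefSeq, and all 8 receptors matched. Tables were handled with Python 3.11.15 and pandas 2.3.3.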

Additional observations from a re-analysis of the deposited data

Results flagged for a closer look

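The effect of the S23DKO genotype on Acvr1 differed between the days in the interaction test of edgeR: it was lower at day 4 than at day 0 by -1.46 on the log2 scale (SE 0.37, adjusted p = 0.0452). Against WT, Acvr1 was at 0.69 ± 0.26 at day 0 and at -0.77 ± 0.26 at day 4, neither passing on its own. The WT day 0 libraries, which set the day 0 value, were 1.59 and 3.01 FPKM and the WT day 4 libraries 7.04 and 6.72 FPKM. The adjusted p was 0.00152 to 0.0585 over the alternatives that keep all libraries of the contrast, above 0.05 with a replicate block (0.0511) and with limma without a filter (0.0585), and 0.0217 to 0.208 when 1 library was left out.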

How the results depend on the processing

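Of 179 counts of called receptors under an alternative, 129 stayed within 1.5 times the value given and 50 moved. Counts of 0 that stayed at 0 are among the 129. The cause of the moves was not tested unless given. S4KO against WT at day 0 had 1 receptor with limma without a filter, 1 with length and GC offsets and 1 with the offsets and a replicate block. S23DKO against WT at day 4 and S4KO against S23DKO at day 4 each had 1 with DESeq2, limma without a filter, the offsets, and the offsets with the block. Day 4 against day 0 in S23DKO had 0 with limma at either pseudocount, whose filter drops Tgfbr2, and also with only the groups compared, and in the fit without WT day 0 added after seeing the data. In S4KO it had 3 with DESeq2, the offsets and the offsets with the block, and 0 with limma without a filter, only the groups compared and without WT day 0. The S23DKO effect between days had 4 with no filter on counts, 2 with DESeq2, limma at either pseudocount and only the groups compared, and 0 with limma without a filter and with the replicate block. Same-numbered libraries deviated together at correlations of -0.147 to 0.339, so the numbers were not taken as pairs, and the block changed no other count beyond 1.5 times.

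Leaving out 1 library gave 0 to 4 receptors for S23DKO against WT at day 0, 0 to 3 for S4KO, 5 to 7 for WT day 4 against day 0, 0 to 0 for day 4 against day 0 in both knockouts, 0 to 5 for the S23DKO effect between days and 0 to 1 for the S4KO effect. Such fits leave 1 library in a group, and calls over all genes moved in them too, so these ranges are not particular to the receptors. From CPM per kb of exon, the Acvr1b share was 39.3% in WT at day 0 and 22.6% in S23DKO at day 4. The Acvr2b share was 63.4% in WT at day 0 and 53.2% in S4KO at day 4. Sign changes were listed only for the receptor values printed above, and all of these were of uncalled genes. Values not printed could change sign too. In the S23DKO effect between days the highest receptor was at -0.0179 without the offsets, and Tgfbr2 was at 0.47 with them. In S4KO against WT at day 0 the offsets gave Acvr1 -0.0917, Bmpr2 -0.29 and Acvr2b 0.0499, and with the block -0.0843, -0.29 and 0.0259. With 1 library left out, Acvr1 ranged from -0.211 to 0.409 and Acvr2b from -0.491 to 0.0795 there, Acvr2b from -0.19 to 0.419 in S23DKO against WT at day 0 and from -0.0364 to 0.756 in S4KO against WT at day 4, and Acvr1b from -0.0791 to 0.539 in S4KO against S23DKO at day 0. Acvr1 from day 0 to day 4 in S23DKO was 0.0141 with limma at a pseudocount of 1, filtered or not, and 0.0172 at 0.1.

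Over all genes, the offsets moved the share of calls that were higher from 39.3% to 54.1% in S4KO against WT at day 4, from 57.1% to 46.6% in S4KO between days, from 38.9% to 50.1% in S4KO against S23DKO at day 0, from 30.1% to 45.8% in the S23DKO effect and from 7.14% to 31.7% in the S4KO effect. With all libraries kept, the alternatives called 393 to 2344 genes in S4KO against S23DKO at day 0, 128 to 1057 in S4KO against WT at day 4, 16 to 3120 in S4KO and 785 to 2929 in S23DKO between days, 928 to 3215 in the S23DKO effect, 20 to 1553 in the S4KO effect, 1804 to 4508 in S4KO against S23DKO at day 4 and 2311 to 4495 in S23DKO against WT at day 4. Tgfbr2, with 47 to 377 counts, is the least precise receptor.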
